A study of Mus musculus with 12 samples.

Results

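The genes described here are 10 that are known from natural killer (NK) cells and other innate lymphoid cells, followed through all 12 libraries of the study. They were chosen by name, with earlier results of these data known. They are Il18r1, Klrb1c, Ncr1, Prf1, Gzma, Gzmb, Nfil3, Zbtb16, Tbx21 and Eomes, and all 10 were found among the 21885 genes of the deposited table. Of these, 6 passed the filter on low values and were tested with the other 12194 genes that passed, and Ncr1, Tbx21, Eomes and Zbtb16 did not pass.

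The libraries were RNA-seq of sorted mouse cells, 4 per group. The P80R B-ALL group was GFP-positive cells with the PAX5 P80R mutation, sorted from B-cell acute lymphoblastic leukaemias of 4 primary recipients, 1300, 1301, 1302 and 1308. The Pax5 KO group was Pax5-/- fetal liver cells labelled CLP/pre-pro-B, that is, common lymphoid progenitors and the step after them, and the Pax5 WT group was Pax5+/+ fetal liver cells of the later pro-B and pre-BI steps. The study used both fetal liver groups as the populations against which the leukaemias were read. Not given in the sources used here are age, strain, the origin of the mutation-bearing cells and whether the fetal liver libraries came from separate animals, so p-values measure the spread between these libraries, which may be technical for the fetal liver groups. Genotype and sorted stage differ together in every comparison and cannot be told apart, and leukaemias from recipients are compared with fetal cells that were never transplanted, as far as the labels say.

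NK cells are lymphocytes that kill infected or transformed cells by releasing granules of perforin and granzymes. They arise, like the other innate lymphoid cells, from common lymphoid progenitors, and the transcription factors encoded by Nfil3, Zbtb16, Tbx21 and Eomes act at successive or branching steps of that path. Pax5 holds cells in the B lineage, and progenitors without it keep the potential to form other lymphoid and myeloid cells.

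For a view of regulatory sequence, the 250 bases before the annotated start sites were searched, in RefSeq's sequence of the mouse build GRCm38.p6, which is an older build than the one the counts were made on. For 9 of the 10 genes a sequence was matched, with 12 start sites in all, and Zbtb16 was not matched. The hexamer TGTGGT, or ACCACA on the other strand, is the core of the motif bound by RUNX factors, which work in NK and T cells. It lies in 14.05% of the 32851 windows of all genes and in 6 of the 12 windows of these genes, of which 2 are overlapping windows of Ncr1 whose starts are 9 bases apart. The genes with a match are Gzma, Gzmb, Klrb1c, Ncr1 and Prf1. The windows of both granzymes and both NK receptors are shown, in lower case with the hexamer in capitals and each written 5′ to 3′ on the strand of its gene. They were picked after the matches were seen, to show the hexamer in a pair of effector genes and a pair of surface receptor genes, and the window of Prf1, which also holds it, is not shown. Gzma lies on the minus strand (chr13:113100982-113101231), as do Gzmb (chr14:56262335-56262584) and Klrb1c (chr6:128788642-128788891), and Ncr1 lies on the plus strand (chr7:4337465-4337714).
Gzma: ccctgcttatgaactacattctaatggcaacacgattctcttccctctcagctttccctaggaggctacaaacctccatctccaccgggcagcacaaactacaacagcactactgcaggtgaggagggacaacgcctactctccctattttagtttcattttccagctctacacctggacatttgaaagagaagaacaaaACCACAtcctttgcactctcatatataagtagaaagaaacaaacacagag
Gzmb: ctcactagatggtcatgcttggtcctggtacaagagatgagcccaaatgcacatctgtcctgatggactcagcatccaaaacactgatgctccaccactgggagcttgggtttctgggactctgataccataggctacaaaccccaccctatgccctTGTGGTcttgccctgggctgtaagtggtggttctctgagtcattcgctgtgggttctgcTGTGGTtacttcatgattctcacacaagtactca
Klrb1c: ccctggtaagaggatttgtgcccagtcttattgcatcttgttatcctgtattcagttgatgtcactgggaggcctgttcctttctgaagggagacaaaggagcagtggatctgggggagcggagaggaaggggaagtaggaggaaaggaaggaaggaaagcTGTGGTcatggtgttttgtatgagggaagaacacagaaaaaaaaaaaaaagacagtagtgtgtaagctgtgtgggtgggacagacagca
Ncr1: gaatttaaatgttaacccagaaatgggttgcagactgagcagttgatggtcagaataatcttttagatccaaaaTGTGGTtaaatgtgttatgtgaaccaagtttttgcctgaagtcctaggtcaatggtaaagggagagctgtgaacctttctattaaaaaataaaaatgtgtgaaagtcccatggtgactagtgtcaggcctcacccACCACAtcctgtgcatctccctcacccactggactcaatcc
In these windows the match starts 50 bases before the start site of Gzma, 93 and 34 bases before that of Gzmb, 89 bases before that of Klrb1c, and 176 and 41 bases before that of Ncr1. None of the 9 genes held GGTGTGA (a T-box motif, in 3.33% of all windows), TTANGTAA (an NFIL3 motif, 2.06%) or GCGTGAC (a core of the PAX5 motif, 1.78%), each searched on both strands, while TTCNNNGAA (a STAT5 motif, 7.02%) was found for Il18r1 alone. A match is a description of letters and not of a bound site, and the absence of one speaks only of these windows.

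Values are scaled read counts, that is, whole reads multiplied by 1 factor per library, and differences are of log2 values after adding 1, each with a standard error (SE) and limma's adjusted p over all 12200 genes tested. A gene is called higher or lower at an adjusted p under 0.05. Total reads were 24914250 to 29386256 per library in P80R B-ALL, 36871775 to 43513852 in Pax5 KO and 33191950 to 39465256 in Pax5 WT. Pax5 (ENSMUSG00000014030) was between 255 and 1316 in P80R B-ALL libraries, 229.9 and 267 in Pax5 KO libraries, and 6194 and 7315 in Pax5 WT libraries, so the fetal liver labels matched the gene's level. The summed value of 12 B-lineage markers was 108749 to 237996 in P80R B-ALL, 50759 to 52126 in Pax5 KO and 253904 to 295751 in Pax5 WT. Leukaemia libraries stood far apart from one another in markers of other blood cells, with summed erythroid markers of 414454, 38934, 32729 and 1070522 in recipients 1300, 1301, 1302 and 1308. Because recipients 1300 and 1308 stood apart in this way, counts are also given without them, a choice made after the data were seen.

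Most of the 10 genes were near absent from Pax5 WT cells, where Nfil3 and Klrb1c had low values. In Pax5 KO cells Nfil3 was high and the other 9 were low. The leukaemias were uneven: against Pax5 KO, 3 of 6 tested genes were called higher and Nfil3 lower, and Zbtb16 was at 0 in every leukaemia. Their summed value was 2259, 1239, 1461 and 2773 in recipients 1300, 1301, 1302 and 1308, against 724 to 815 in Pax5 KO and 13.8 to 68.0 in Pax5 WT. The groups did not overlap in this sum, but different genes fill it. Nfil3 gave 567 to 696 of it in Pax5 KO, while Il18r1 or Klrb1c was the highest of the 10 genes in every leukaemia. In each Pax5 WT library 7 or 8 of the 10 genes were at 0, against 1 to 3 in the leukaemia libraries and at most 2 in Pax5 KO libraries. In bulk libraries such as these, a lower value from fewer cells of a type cannot be told apart from less RNA of the gene per cell.

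**Figure D1:**
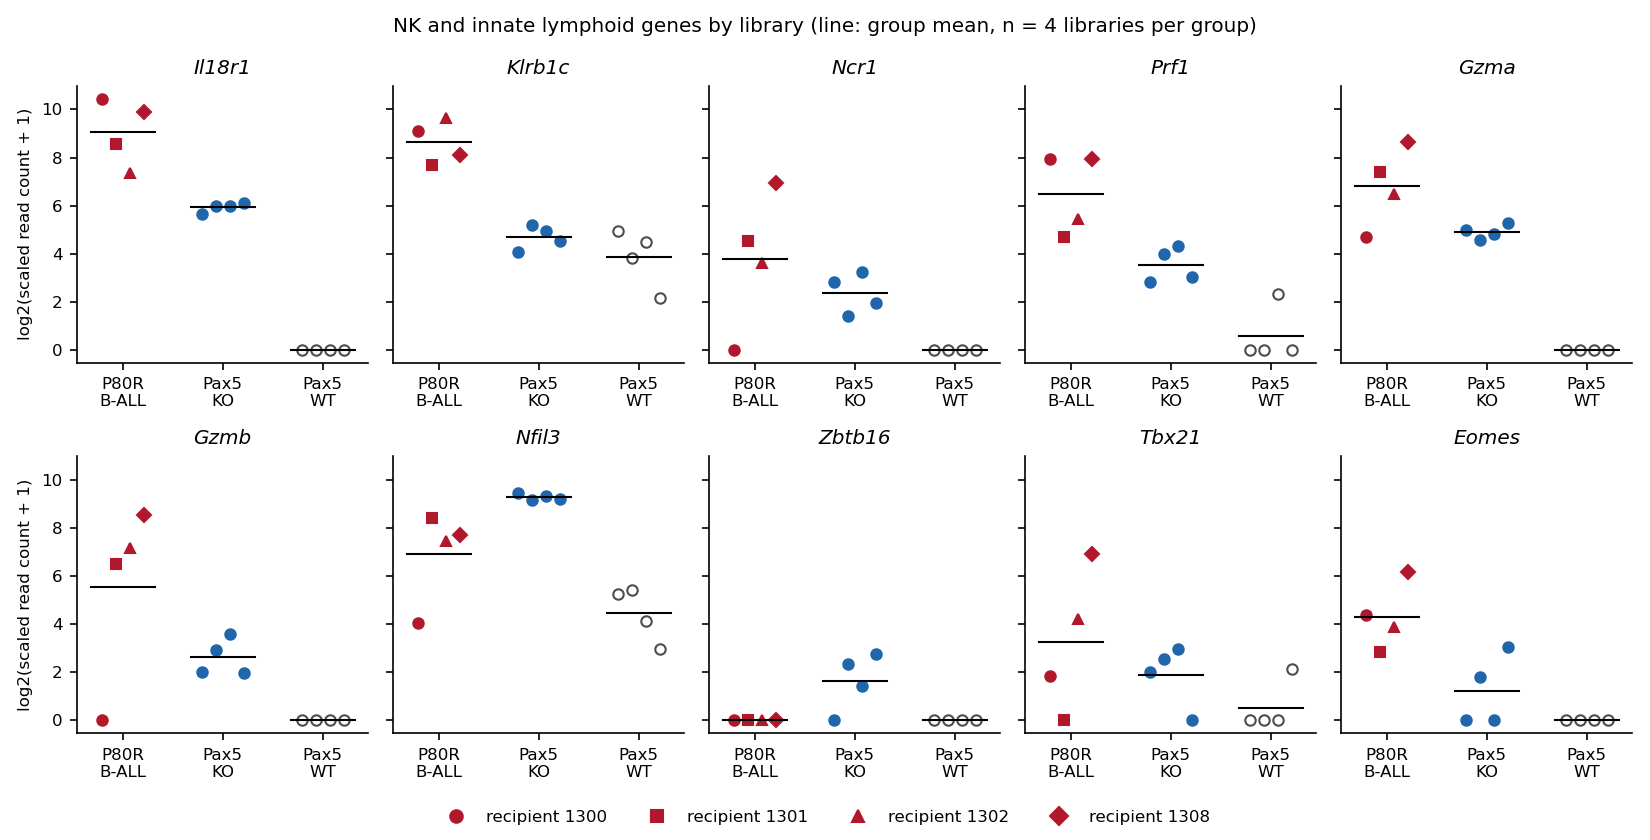
Each panel shows 1 gene, with the log2 of the scaled read count plus 1 on the vertical axis, 1 point per library and a line at the mean of the 4 libraries of P80R B-ALL, Pax5 KO and Pax5 WT. Leukaemia points spread most for Gzmb, from 0 in recipient 1300 to 372 in recipient 1308, while Pax5 KO points stay close together for Nfil3, Il18r1 and Gzma, and Pax5 WT points lie at 0 for Il18r1, Gzma, Gzmb, Ncr1, Eomes and Zbtb16.

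Il18r1 (ENSMUSG00000026070) encodes a chain of the receptor for interleukin-18, a cytokine that prompts NK cells to make interferon-gamma. It was at 1402, 379, 164 and 962 in recipients 1300, 1301, 1302 and 1308, at 49.5, 63.3, 62.6 and 68.6 in Pax5 KO libraries 1 to 4, and at 0 in all 4 Pax5 WT libraries. The 3 groups did not overlap, and recipients 1300 and 1308 were the high leukaemias. Il18r1 rose in P80R B-ALL over Pax5 KO (log2 difference 3.13 ± 0.61 SE, adjusted p = 0.00486) and over Pax5 WT, where it was at least 255-fold higher against a floor of 3 reads per library (adjusted p = 3.09e-05). In Pax5 KO it was at least 21.4-fold higher than in Pax5 WT (adjusted p = 4.69e-08). Each of these calls held in all 18 settings tried. Without recipients 1300 and 1308 the difference from Pax5 KO was 2.02 on the log2 scale.

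Klrb1c (ENSMUSG00000030325) encodes NK1.1, an activating surface receptor used to sort mouse NK cells. It was at 549.6, 207, 804 and 274 in recipients 1300, 1301, 1302 and 1308, at 16.0, 36.2, 30.0 and 22.4 in Pax5 KO and at 30.2, 13.0, 21.8 and 3.44 in Pax5 WT. Every leukaemia library was above every fetal liver library, and the fetal liver groups overlapped. Klrb1c rose in P80R B-ALL over Pax5 KO (log2 difference 3.94 ± 0.50 SE, adjusted p = 0.000754) and over Pax5 WT (4.78 ± 0.68 SE, adjusted p = 0.000636), in all 18 settings. Between Pax5 KO and Pax5 WT the log2 difference was 0.84 ± 0.55 SE with a 95% interval of -0.37 to 2.06 (adjusted p = 0.201), and it passed in none of 18 settings. Klrb1c has similar neighbours in its gene cluster and shares exon positions on its strand with Gm44511, which was at 0 in every library, and the counting of reads that match several genes was not given in the sources used here.

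Ncr1 (ENSMUSG00000062524), the gene of the activating receptor NKp46, was far lower. It was at 0, 22.2, 11.2 and 120.4 in recipients 1300, 1301, 1302 and 1308, at 6.09, 1.64, 8.57 and 2.89 in Pax5 KO and at 0 in every Pax5 WT library. Recipient 1308 was the high library and recipient 1300 had no read, so the leukaemias overlapped both fetal liver groups. The mean of 38.4 in P80R B-ALL was 11.1 without recipient 1308. In a fit without the filter on low values, Ncr1 was called higher in P80R B-ALL than in Pax5 WT (adjusted p = 0.0484) and higher in Pax5 KO cells than in Pax5 WT (adjusted p = 0.00312), and P80R B-ALL against Pax5 KO did not pass (adjusted p = 0.471). Against the floor of 3 reads in Pax5 WT, the mean of Ncr1 was at least 13.5-fold higher in P80R B-ALL and at least 1.69-fold higher in Pax5 KO. The bound for P80R B-ALL covers the Pax5 WT side only, rests on recipient 1308 and does not hold for recipient 1300. The bound for Pax5 KO is likewise one of the mean, and Pax5 KO library 2, at 1.64, lay under that floor.

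Prf1 (ENSMUSG00000037202) encodes perforin, the protein that opens pores in a target cell. It was at 245, 24.6, 42.2 and 245 in recipients 1300, 1301, 1302 and 1308, at 6.09, 14.8, 18.9 and 7.22 in Pax5 KO, and at 0 in Pax5 WT apart from 3.95 in library 3. Recipients 1300 and 1308 were the high leukaemias, and every group stood clear of the next. Prf1 rose in P80R B-ALL over Pax5 KO (log2 difference 2.96 ± 0.84 SE, adjusted p = 0.0224). That call was lost without Pax5 KO library 1 (adjusted p = 0.0643), without Pax5 KO library 4 (0.0623), without recipient 1300 (0.0505) and without recipients 1300 and 1308, where the difference was 1.52 (adjusted p = 0.0699), over a range of 0.0116 to 0.0699 in 17 settings. Prf1 also rose in P80R B-ALL over Pax5 WT (5.92 ± 0.96 SE, adjusted p = 0.00126) and in Pax5 KO over Pax5 WT (2.96 ± 0.66 SE, adjusted p = 0.00185), in all 17 settings.

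Granzymes are the serine proteases that enter the target cell with perforin. Gzma (ENSMUSG00000023132), whose upstream window is the first of those printed above, was at 25.0, 167, 88.1 and 396 in recipients 1300, 1301, 1302 and 1308, at 30.5, 23.0, 27.4 and 37.6 in Pax5 KO and at 0 in every Pax5 WT library. Recipient 1300 lay within the Pax5 KO range and the other 3 leukaemias lay above it, and Pax5 WT stood below both. Gzma was higher in P80R B-ALL than in Pax5 WT by at least 59.4-fold (adjusted p = 0.000311) and in Pax5 KO cells than in Pax5 WT by at least 10.4-fold (adjusted p = 7.45e-07), in all 17 settings. Between P80R B-ALL and Pax5 KO the log2 difference was 1.89 ± 0.76 SE, which did not pass (adjusted p = 0.0769), but it passed in the fit to all 12 libraries (0.0380), in edgeR (0.0264), without recipient 1300 (0.00899) and without recipients 1300 and 1308 (0.00572), over a range of 0.00572 to 0.161. The P80R B-ALL mean of 169, on which the 59.4-fold bound rests, was 93.5 without recipient 1308.

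Gzmb (ENSMUSG00000015437), the granzyme that triggers apoptosis through caspases, was at 0, 88.6, 144 and 372 in recipients 1300, 1301, 1302 and 1308, at 3.05, 6.57, 11.1 and 2.89 in Pax5 KO and at 0 in every Pax5 WT library. Recipient 1300, which had the joint highest Prf1, had no Gzmb read, while the other 3 leukaemias were above every fetal liver library. Between P80R B-ALL and Pax5 KO the log2 difference was 2.93 with a 95% interval of -0.78 to 6.63 (adjusted p = 0.186), and without recipient 1300 it was 4.78 and passed (adjusted p = 0.00219), as it did without recipients 1300 and 1308 (0.00219) and in edgeR (0.0273), over a range of 0.00219 to 0.359. Gzmb was called higher in P80R B-ALL than in Pax5 WT, by at least 53.1-fold (adjusted p = 0.0215), a call lost without Pax5 WT library 1 (0.0516), 2 (0.0511) or 3 (0.0516) and without recipient 1301 (0.0545) or 1302 (0.0519), over a range of 0.000153 to 0.0545. In Pax5 KO it was at least 2.08-fold higher than in Pax5 WT (adjusted p = 0.00182), and in the fit to all 12 libraries this did not pass (0.172, the highest over 17 settings, with a lowest of 0.0012). Its P80R B-ALL mean of 151, on which the 53.1-fold bound rests, was 77.5 without recipient 1308, and the bound does not hold for recipient 1300. Gzmb lies beside similar granzyme genes, so its counts share the doubt stated for Klrb1c.

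Nfil3 (ENSMUSG00000056749) encodes a basic leucine zipper factor that is needed early in NK and innate lymphoid development. It was at 15.8, 345, 177 and 210.3 in recipients 1300, 1301, 1302 and 1308, at 696, 567, 648 and 598 in Pax5 KO and at 37.8, 42.0, 16.8 and 6.88 in Pax5 WT. Pax5 KO libraries were the highest without overlap, 3 leukaemias lay between the fetal liver groups, and recipient 1300 lay within the Pax5 WT range. Nfil3 was the only one of the 6 tested genes with a negative difference between P80R B-ALL and Pax5 KO (log2 difference -2.36 ± 0.82 SE, adjusted p = 0.0474). That call was narrow: it was lost in edgeR (0.0817), with log2 CPM (0.0515), without the filter (0.0599), without Pax5 KO library 1 (0.102), 2 (0.0931), 3 (0.101) or 4 (0.0946) and without recipient 1302 (0.0630), over a range of 0.00492 to 0.102 in 18 settings. Between P80R B-ALL and Pax5 WT the log2 difference of 2.47 ± 0.96 SE did not pass (adjusted p = 0.0656), and without recipient 1300 it was 3.42 and passed (0.00455), as it did without recipients 1300 and 1308 (0.00951), in edgeR (0.0325) and in the fit to all 12 libraries (0.0224), over a range of 0.00455 to 0.161. In Pax5 KO, Nfil3 rose over Pax5 WT by 4.83 ± 0.43 SE (adjusted p = 1.16e-06), in all 18 settings.

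The other transcription factor genes were low in most libraries, and recipient 1308 was the exception, with 52 reads of Eomes and 88 reads of Tbx21. Eomes (ENSMUSG00000032446), which encodes a T-box factor of NK cell maturation, was at 19.7, 6.15, 13.6 and 72.0 in recipients 1300, 1301, 1302 and 1308, at 0, 2.47, 0 and 7.22 in Pax5 KO and at 0 in Pax5 WT. Recipient 1308 was the highest, and recipient 1301 overlapped Pax5 KO. Without the filter on low values, Eomes was called higher in P80R B-ALL than in Pax5 KO (adjusted p = 0.0390) and than in Pax5 WT (adjusted p = 0.0025, at least 9.79-fold), and Pax5 KO against Pax5 WT did not pass (adjusted p = 0.224). Its P80R B-ALL mean of 27.9, on which the 9.79-fold bound rests, was 13.2 without recipient 1308. Eomes overlaps an antisense gene, Gm33460, and the library kit does not mark strand, so reads of the pair cannot be told apart.

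Tbx21 (ENSMUSG00000001444), the gene of the T-box factor T-bet that drives interferon-gamma production, was at 2.63, 0, 17.4 and 122 in recipients 1300, 1301, 1302 and 1308, at 3.05, 4.93, 6.86 and 0 in Pax5 KO, and at 0 in Pax5 WT apart from 3.44 in library 4. All 3 groups overlapped, and the P80R B-ALL mean of 35.4 was 6.67 without recipient 1308. No comparison passed without the filter (adjusted p = 0.508 for P80R B-ALL against Pax5 KO, 0.173 for P80R B-ALL against Pax5 WT and 0.235 for Pax5 KO against Pax5 WT). Zbtb16 (ENSMUSG00000066687), which encodes PLZF, a factor of innate lymphoid precursors and NKT cells, had no read in any leukaemia or Pax5 WT library and was at 0, 4.11, 1.71 and 5.78 in Pax5 KO, from 15 reads in all. A count of 0 allows up to 3 reads per library, which is a scaled value of 3.69 to 4.15 in the leukaemia libraries and 2.58 to 3.00 in the Pax5 WT libraries, so differences of that size were not detectable at this depth. These floors cover counting error only.

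Of the 6 tested genes, 3 were called higher in P80R B-ALL than in Pax5 KO (Il18r1, Klrb1c and Prf1) and Nfil3 was called lower, where 17.6% of all tested genes were called higher and 20.8% lower. Without recipients 1300 and 1308, 4 were called higher and 1 lower, where the shares of all tested genes were 21.2% higher and 27.8% lower. Over all genes, 2151 were called higher and 2532 lower in this comparison, and with edgeR on the recovered reads 2539 higher and 1832 lower. Against Pax5 WT, 5 of the 6 were called higher in P80R B-ALL and Nfil3 did not pass, where 21.0% of tested genes were called higher and 18.9% lower, and without recipients 1300 and 1308 all 6 were called higher, where 22.5% of tested genes were. In Pax5 KO against Pax5 WT, 5 of the 6 were called higher and Klrb1c did not pass, where 35.7% of tested genes were called higher and 29.1% lower. The median log2 difference of the 6 genes was 2.94 in P80R B-ALL against Pax5 KO, where that of all tested genes was -0.11. In P80R B-ALL against Pax5 WT it was 5.74, where that of all genes was near 0, and in Pax5 KO against Pax5 WT it was 3.90, where that of all genes was 0.06. These medians take in genes at 0 in every Pax5 WT library, whose fitted differences depend on the added 1. Il18r1, Prf1, Gzma and Gzmb passed the filter on low values only through P80R B-ALL and Pax5 KO libraries. The set was also chosen with earlier results of these data known. The counts and medians therefore describe these genes and are not a test of the set. Since the leukaemia libraries serve in 2 of these comparisons and each fetal liver group likewise, the counts are not independent of one another.

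**Figure D2:**
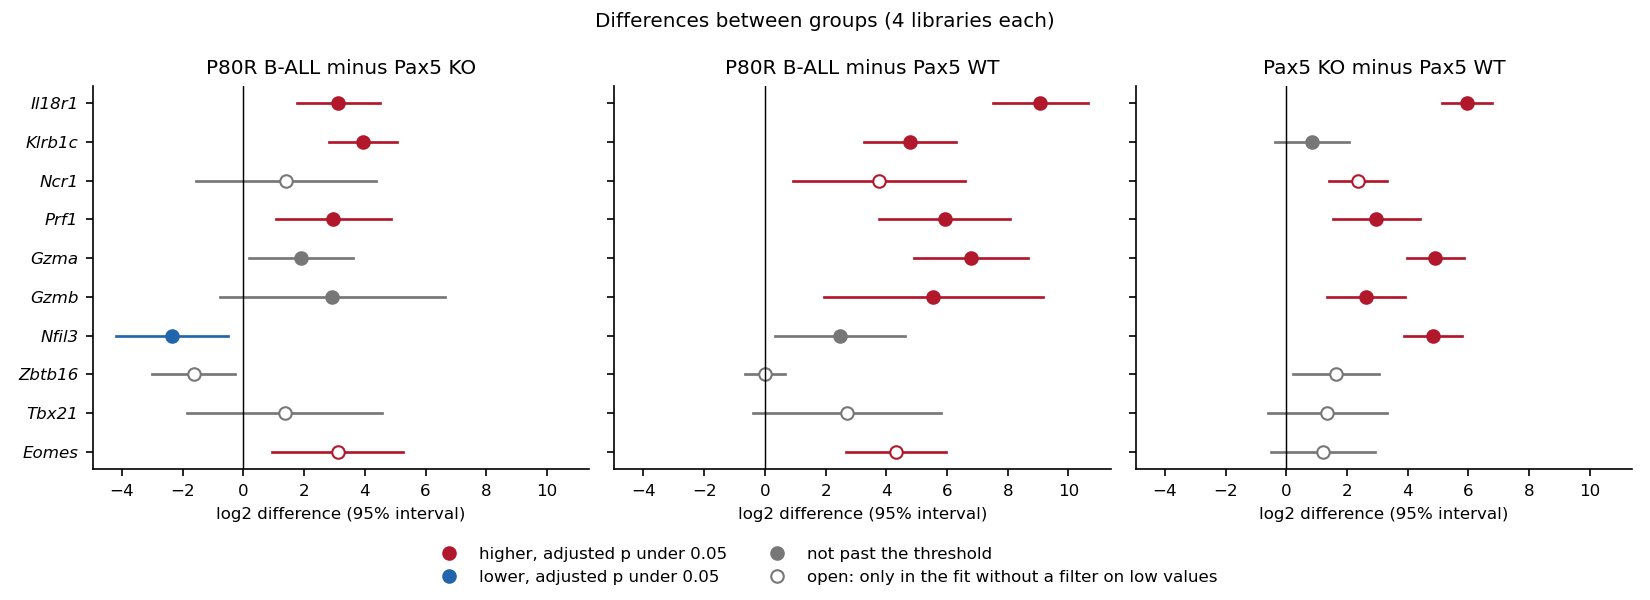
Points give the log2 difference of each gene in P80R B-ALL minus Pax5 KO, P80R B-ALL minus Pax5 WT and Pax5 KO minus Pax5 WT, and bars its 95% interval, with open points for the 4 genes that only the fit without the filter covers. Nfil3 is the gene that lies lower in P80R B-ALL than in Pax5 KO among those past the threshold (-2.36), while Il18r1 has the largest difference from Pax5 WT in both other panels (9.07 and 5.94).

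Levels of different genes can be compared per kilobase of exon. In P80R B-ALL the order of mean scaled counts per kilobase was Gzma (168 ± 161 SD), Klrb1c (155 ± 92.5), Il18r1 (151 ± 117), Gzmb (105 ± 111), Nfil3 (92.3 ± 66.7), Prf1 (53.8 ± 47.3), Ncr1 (25.0 ± 36.0), Tbx21 (14.2 ± 23.3), Eomes (6.71 ± 7.20) and Zbtb16 at 0 (n = 4). Every neighbouring pair in that order overlapped between libraries, apart from Eomes and Zbtb16. The order of the means rests on single libraries: without recipient 1308, Klrb1c came first (176), then Il18r1 (135), Gzma (92.9), Nfil3 (88.5) and Gzmb (54.0), and without recipient 1301 Klrb1c also came first (183), then Il18r1 (175) and Gzma (169). In Pax5 KO the order began with Nfil3 (309.6 ± 27.9), Gzma (29.4 ± 6.08) and Il18r1 (12.7 ± 1.69), 3 genes that did not overlap, and went on through Klrb1c (8.83), Prf1 (4.54), Gzmb (4.12), Ncr1 (3.12), Tbx21 (1.49), Eomes (0.58) and Zbtb16 (0.55), whose neighbours overlapped. Pax5 WT had Nfil3 at 12.8 ± 8.29 and Klrb1c at 5.78, which overlapped, and no other gene above 0.38 per kilobase.

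The leukaemias differed in which of the genes they carried. Of the 9 genes detected in any leukaemia, 5 were highest in recipient 1308 (Gzma, Gzmb, Ncr1, Tbx21 and Eomes), while Il18r1 was highest in recipient 1300, Nfil3 in recipient 1301 and Klrb1c in recipient 1302. Prf1 was level between recipients 1300 and 1308 in scaled counts, and in CPM of whole reads it was 7.47 in recipient 1300 and 6.56 in recipient 1308. Recipient 1300 joined the highest Il18r1 and a high Prf1 and Klrb1c with no read of Gzmb or Ncr1 and the lowest Gzma and Nfil3. Recipient 1301 joined the highest Nfil3 with the lowest Klrb1c, Prf1 and Eomes. Recipient 1302 joined the highest Klrb1c with the lowest Il18r1.

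Markers of other blood cells also differed between the leukaemias. Recipient 1308 also had the highest value for 9 of 12 T-cell markers, 10 of 10 plasmacytoid dendritic cell markers, 12 of 14 granulocyte and monocyte markers and 6 of 9 erythroid markers, but for 1 of 12 B-lineage markers. The T-cell receptor gene Cd3e was at 10.52, 50.5, 128 and 834 in recipients 1300, 1301, 1302 and 1308, and Cd8a at 18.4, 13.5, 55.8 and 509. The T-cell list as a whole had another order, with Lck and Cd6 highest in recipient 1301 and Cd28 in recipient 1300. Summed T-cell markers were 12066, 14602, 5926 and 15195 in recipients 1300, 1301, 1302 and 1308, with at most 2 of 12 at 0, 4252 to 4479 in Pax5 KO, with 1 to 4 at 0, and 428 to 616 in Pax5 WT, with 7 or 8 at 0. In Pax5 KO, Cd3e was at 0 in 3 of the 4 libraries, and it was at 0 in every Pax5 WT library. Summed plasmacytoid dendritic cell markers were 4232 to 140996 in P80R B-ALL, 10959 to 11577 in Pax5 KO and 1468 to 1854 in Pax5 WT. Summed granulocyte and monocyte markers were 5689 to 281798 in P80R B-ALL, 10604 to 11342 in Pax5 KO and 575 to 828 in Pax5 WT. Summed mast cell and basophil markers, cells that can also carry granzyme, were 27.3 to 1724 in P80R B-ALL, 170.1 to 295 in Pax5 KO and at most 2.00 in Pax5 WT. Of the T-cell markers, 6 of 9 tested were called higher in P80R B-ALL than in Pax5 KO, where 17.6% of all tested genes were. However, Cd3d, Cd3e and Cd8a passed the filter on low values only through the leukaemia libraries. That count therefore describes these markers and is no test of the list. In Pax5 KO cells against Pax5 WT, 6 of 9 T-cell markers were called higher, where 35.7% of all tested genes were. In that comparison 7 of 8 tested plasmacytoid dendritic cell markers and 13 of 13 granulocyte and monocyte markers were also called higher. So were 4 of 4 mast cell and basophil markers and 1 of 9 erythroid markers. Among these markers, Mcpt8, Cpa3, Cma1, Siglech and S100a8 were at 0 in every Pax5 WT library. They passed the filter on low values only through the other groups, so these counts against Pax5 WT are no test of the lists. The part that any of these cell types had in the values of the 10 genes was not tested.

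**Figure D3:**
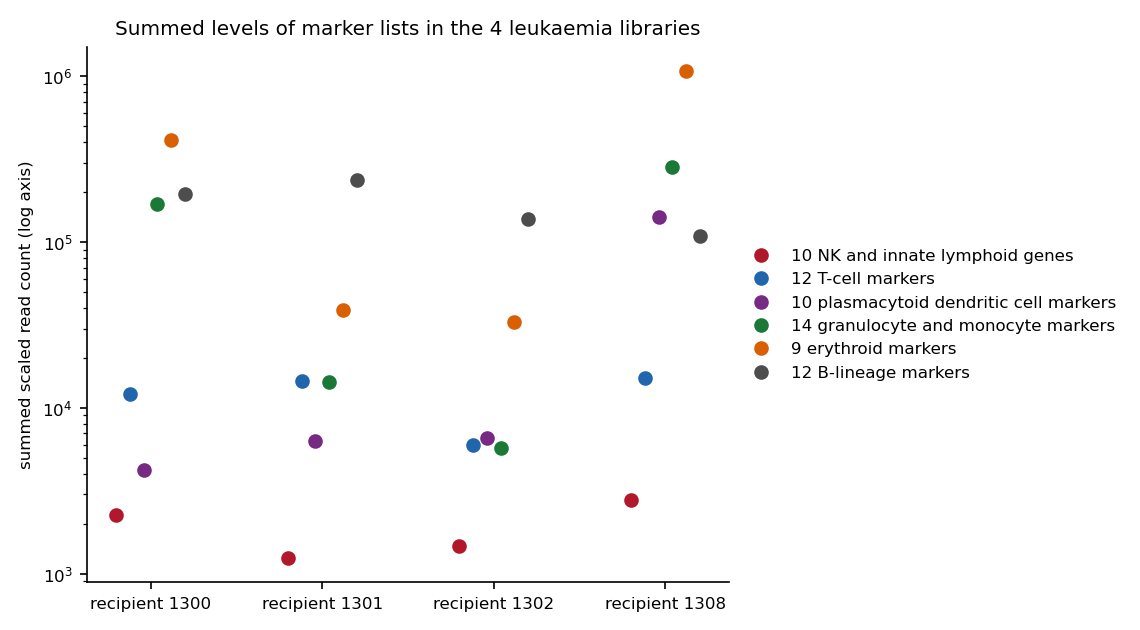
Each column is 1 leukaemia library, and each point the summed scaled read count of 1 marker list on a log axis. The sum of the 10 NK and innate lymphoid genes spans 1239 to 2773, while erythroid markers span 32729 to 1070522 and plasmacytoid dendritic cell markers stand at 140996 in recipient 1308 and at most 6591 elsewhere.

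Other genes of the same programmes were described as lists, each by its counts, which are to be read beside the shares of all tested genes given above. The lists were likewise chosen with earlier results of these data known. Receptors of NK and innate lymphoid cells, such as the lectin-like CD94 chain gene Klrd1, were mostly higher in both Pax5-altered groups than in Pax5 WT. Of 16 receptor genes 11 were tested, and 10 of them were called higher in P80R B-ALL than in Pax5 WT, 10 higher and 1 lower in Pax5 KO cells than in Pax5 WT, and 3 higher in P80R B-ALL than in Pax5 KO. Over all tested genes, 17.6% were called higher in P80R B-ALL than in Pax5 KO. Without recipient 1308, 2 receptors were called lower in P80R B-ALL than in Pax5 KO, in place of 0. The median log2 difference of the tested receptors from Pax5 WT was 6.04 in P80R B-ALL and 6.43 in Pax5 KO. In each Pax5 WT library 10 to 12 of the 16 receptor genes were at 0. Tested receptors such as Klri2 and Cd226 thus passed the filter on low values only through the other groups. The counts and medians against Pax5 WT therefore describe these genes and are no test of the list. Klrd1 was at 3450, 509, 8026 and 15710 in recipients 1300, 1301, 1302 and 1308, at 4897 to 5523 in Pax5 KO and at 51.0 to 63.3 in Pax5 WT, so the leukaemias lay on both sides of Pax5 KO. Slamf7, a receptor of NK and B cells, went against the list, with means of 1720 in P80R B-ALL, 10.2 in Pax5 KO and 1107 in Pax5 WT, and was called higher in P80R B-ALL than in Pax5 KO (adjusted p = 0.000113) and lower in Pax5 KO cells than in Pax5 WT (adjusted p = 1.5e-09).

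Signalling adaptors carry the signal of activating NK receptors inward. Of 12 genes 11 were tested: 3 were called higher and 3 lower in P80R B-ALL than in Pax5 KO, 8 higher and 2 lower in P80R B-ALL than in Pax5 WT, and 9 higher and 1 lower in Pax5 KO cells than in Pax5 WT. Fcer1g, the common gamma chain of Fc and NK receptors, was at 19463, 4023, 1277 and 26853 in recipients 1300, 1301, 1302 and 1308, at 6485 to 6990 in Pax5 KO and at 28.0 to 81.7 in Pax5 WT. Tyrobp, which encodes the adaptor DAP12, was at 1090, 986, 471 and 26271, at 3212 to 3848 and at 2.00 to 14.2 in the same groups. Both genes are also used by myeloid cells, and both were highest in recipient 1308. Without Pax5 KO library 4, 1 adaptor was called higher in P80R B-ALL than in Pax5 KO, in place of 3. The shares of all tested genes in that comparison were 17.6% higher and 20.8% lower, and the adaptor counts lie near them.

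Cytokine receptors of these cells were mostly higher in both groups than in Pax5 WT. Of 9 tested, 7 were called higher in P80R B-ALL and 8 in Pax5 KO cells than in Pax5 WT, and 3 were called higher and 3 lower in P80R B-ALL than in Pax5 KO. In that last comparison, 17.6% of all tested genes were called higher and 20.8% lower. Il18rap, the partner chain that completes the receptor with the product of Il18r1, was at 4245, 2806, 2961 and 1659 in recipients 1300, 1301, 1302 and 1308, at 1938 to 2155 in Pax5 KO and at 6.00 to 39.5 in Pax5 WT (adjusted p = 2.49e-05 for P80R B-ALL against Pax5 WT). It was far steadier between leukaemias than Il18r1, and recipient 1308 lay below Pax5 KO. Il2rb, the receptor chain shared by interleukin-2 and interleukin-15, was at 25.0, 66.5, 161 and 978, at 224 to 246 and at 0 in the same groups (adjusted p = 5.61e-10 for Pax5 KO against Pax5 WT). Il12rb2, a chain of the interleukin-12 receptor, averaged 17.4 in P80R B-ALL and 263 in Pax5 KO and was called lower in P80R B-ALL (log2 difference -4.29 ± 0.65 SE, adjusted p = 0.00172).

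Among 15 tested granule and death effector genes, 2 were called higher and 3 lower in P80R B-ALL than in Pax5 KO, 7 higher in P80R B-ALL than in Pax5 WT, and 9 higher and 2 lower in Pax5 KO cells than in Pax5 WT. The counts against Pax5 KO are near the shares of all tested genes, 17.6% higher and 20.8% lower, and are no result about the list. The granzyme genes Gzmc and Gzmk separated the groups in opposite ways. Gzmk was at 26.3, 67.7, 58.3 and 235 in recipients 1300, 1301, 1302 and 1308 and at 0 in all 8 fetal liver libraries. Gzmc was at 0 in all 4 leukaemia libraries, at 52.5, 47.7, 50.6 and 75.1 in Pax5 KO and at 0 in Pax5 WT. Gzmk was called higher in P80R B-ALL than in Pax5 KO (adjusted p = 0.000585) and Gzmc lower (adjusted p = 0.000211). However, Gzmk passed the filter on low values only through the leukaemia libraries, and Gzmc only through the Pax5 KO libraries. Each was thus tested only because it was high in that group, and its call adds no support to the values. Both are paralogues of Gzma and Gzmb and share the doubt on reads that match several genes. In P80R B-ALL against Pax5 KO, 4 genes of this list were called higher without recipient 1301, 1302 or 1308, and 1 was called lower without recipient 1300 or 1301 or without any one Pax5 KO library.

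Effector cytokines and chemokines were mostly too low to test. Of 5 tested genes, 4 were called higher in P80R B-ALL than in Pax5 WT, where 21.0% of all tested genes were. In Pax5 KO cells against Pax5 WT, 5 were called higher, where 35.7% of all tested genes were. In Pax5 WT, Xcl1 was at 0, Ccl5 at most 4.00 and Ccl3 at most 5.93. These genes passed the filter on low values only through the other groups, so the counts are no test of the list. The chemokine genes Ccl5 and Ccl3 differed in opposite directions between P80R B-ALL and Pax5 KO. Ccl5 was at 124, 126, 355 and 3738 in recipients 1300, 1301, 1302 and 1308, against 10.1 to 32.7 in Pax5 KO, and was called higher (adjusted p = 0.0111). Ccl3 was at 133, 48.0, 323 and 560.5, against 1904 to 2496 in Pax5 KO, and was called lower (adjusted p = 0.0038).

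Of 15 tested transcription factors of NK and innate lymphoid precursors, 4 were called higher and 2 lower in P80R B-ALL than in Pax5 KO, 6 higher and 2 lower in P80R B-ALL than in Pax5 WT, and 9 higher and 5 lower in Pax5 KO cells than in Pax5 WT. Over all tested genes the shares were 17.6% higher and 20.8% lower in P80R B-ALL against Pax5 KO, and 35.7% higher and 29.1% lower in Pax5 KO against Pax5 WT, so the counts in P80R B-ALL against Pax5 KO and the 5 lower in Pax5 KO lie near what all genes gave. Without recipients 1300 and 1308, 7 of these genes were called lower in P80R B-ALL than in Pax5 KO, in place of 2, and without any one Pax5 KO library 2 were called higher and 1 lower. Id2, which encodes an inhibitor of E proteins needed for innate lymphoid fate, was at 2952, 3011, 1590 and 13127 in recipients 1300, 1301, 1302 and 1308, at 2755 to 3228 in Pax5 KO and at 277 to 399 in Pax5 WT. Tox, a factor of the earliest innate lymphoid precursors, was at 2953, 98.4, 108 and 506, at 1464 to 1683 and at 4.94 to 9.00 in the same groups. Both were called higher in P80R B-ALL than in Pax5 WT (adjusted p = 0.00111 for Id2 and 0.00234 for Tox) and in Pax5 KO cells than in Pax5 WT (2.99e-10 and 1.57e-11). Ets1 went the other way, with means of 14690 in P80R B-ALL, 6641 in Pax5 KO and 24760 in Pax5 WT. It was called lower in Pax5 KO cells than in Pax5 WT (adjusted p = 1.45e-09). The summed value of the list was 20814 to 32095 in P80R B-ALL, 15917 to 16833 in Pax5 KO and 26669 to 34990 in Pax5 WT. Of 11 tested surface markers of innate lymphoid precursors, 2 were called higher and 1 lower in P80R B-ALL than in Pax5 KO, 6 higher in P80R B-ALL than in Pax5 WT, and 9 higher and 1 lower in Pax5 KO cells than in Pax5 WT. The 2 higher and 1 lower against Pax5 KO lie near or below the shares of all tested genes, 17.6% higher and 20.8% lower, and are no result about the list. In P80R B-ALL against Pax5 KO, 4 of these markers were called higher without recipient 1308, and 1 without recipient 1300 or 1301 or any one Pax5 KO library, while 2 were called lower without recipient 1301 or 1308. Without Pax5 WT library 4, 2 were called lower in Pax5 KO cells than in Pax5 WT. Il2ra, the alpha chain of the interleukin-2 receptor, was called higher in P80R B-ALL than in Pax5 KO, with means of 2625 and 291 (adjusted p = 9.51e-05), and Cd27 lower, with means of 74.1 and 2360 (adjusted p = 0.000585).

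**Figure D4:**
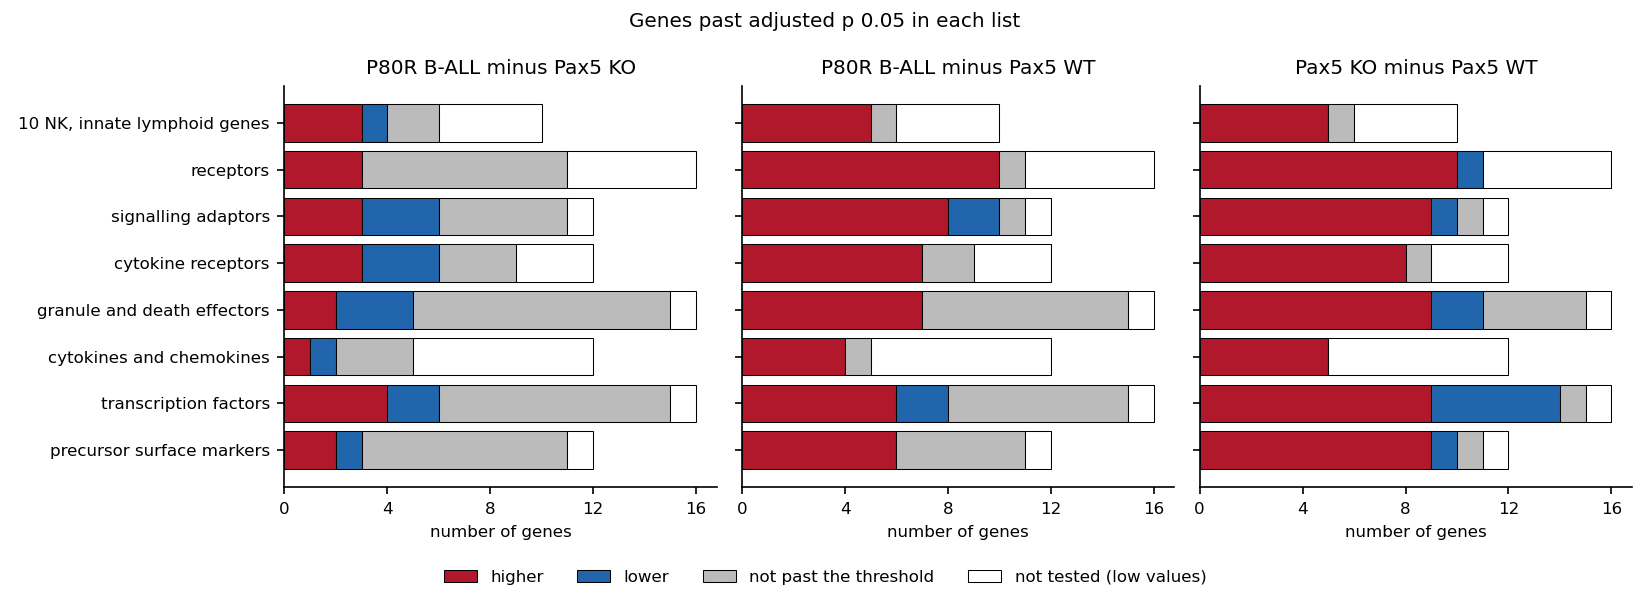
Bars show, for each list and comparison, how many genes were called higher, called lower, did not pass or were too low to test. Of 11 tested receptors, 10 were higher in both P80R B-ALL and Pax5 KO than in Pax5 WT, and granule genes had 7 of 15 higher in P80R B-ALL than in Pax5 WT. In P80R B-ALL against Pax5 KO, 3 of 11 receptors were higher, and cytokine receptors had 3 of 9 higher and 3 lower. All tested genes had 17.6% higher and 20.8% lower in that comparison.

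For each tested gene, the gene with the most similar profile was sought among 12194 others, by the root mean square distance between log2 values centred on their own mean over the 12 libraries. Il18r1 was nearest to Cd63 (distance 0.58), Klrb1c to Lgalsl (0.81), Prf1 to Arhgap22 (0.74), Gzma to Igfbp7 (0.40), Gzmb to Ms4a6c (0.81) and Nfil3 to S1pr3 (0.74). Gzma and Igfbp7 were the closest pair, with Igfbp7 means of 257 in P80R B-ALL, 28.5 in Pax5 KO and 0 in Pax5 WT beside Gzma means of 169, 29.6 and 0. S1pr3 means were 189.7 in P80R B-ALL, 565 in Pax5 KO and 27.0 in Pax5 WT beside Nfil3 means of 187, 627 and 25.9.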

How the data were processed

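RNA was measured in 12 libraries of sorted mouse cells, 4 per group, grouped by their labels. Per the labels' protocols, sorted cells went through a Qiagen RNeasy micro column and the SMART-Seq v4 full-length kit, whose reads carry no strand. The submitters' processing notes name fastp, STAR 2.7.8a, featureCounts and the build mm39. Not given in the sources used here are the annotation, the strand option and the treatment of reads matching several genes.

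The deposited signal values are scaled counts: 100% of positive values were whole multiples, within a tolerance of 0.001, of 1 step per library of 0.722 to 1.38, so the authors had divided whole read counts by 1 factor per library. The origin of these factors was not given in the sources used here. Dividing by the step gave whole reads, 24914250 to 43513852 per library. Symbols and exon lengths came from GENCODE M21, which matched 21780 of 21885 identifiers, and upstream sequences from RefSeq.

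A gene was tested where 4 or more of the 12 libraries had a value of 10 or more, which left 12200 genes, as log2 of the value plus 1, with limma 3.58.1 in R 4.3.3 (trend and robust options, two-sided). Each comparison used only its own 8 libraries, because the leukaemia libraries varied more than the others, with Benjamini-Hochberg adjustment over all genes tested. edgeR 4.0.16 (quasi-likelihood) on the recovered reads called 4371 genes in P80R B-ALL against Pax5 KO, 4756 in P80R B-ALL against Pax5 WT and 7880 in Pax5 KO against Pax5 WT, where limma called 4683, 4873 and 7901. Other alternatives were a fit to all 12 libraries, group weights, log2 CPM with TMM factors, pseudocounts of 0.5 and 5, no filter (16648 genes), a filter of at least 50 (10745 genes), leaving out each library, leaving out recipients 1300 and 1308, and a replicate block. The procedure was checked on simulated counts. The spread simulated among leukaemias was narrower than that of most of the 10 genes, so the check does not cover them. For a gene at 0 in a group, folds are lower bounds from a floor of 3 reads per library, and floors cover counting error only. Such a fold sets the mean of the other group against the floor, so the spread within that other group is not covered.

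The 10 genes and all lists were chosen with earlier results of these data known. All 10 genes are named, and from each list up to 3 genes past the threshold with the smallest adjusted p in a comparison. Where values of such a gene are given, they cover at least the groups that are compared, and not always all groups. Cd3e and Cd8a were added after their values were seen. For the 4 genes under the filter, the fit without a filter is given.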

Additional observations from a re-analysis of the deposited data

Results flagged for a closer look

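Of 78 sets of 4 values looked at, each 1 gene or summed list in 1 group, 10 held a library far from the other 3 by Dixon's criterion. A set at 0 in every library cannot meet this criterion, and a set with 1 library above 0 always does. The count is therefore not set against a chance rate. Among the 10 genes, Tbx21 was at 122 in the leukaemia of recipient 1308 and at most 17.4 in the other leukaemias. Prf1 was at 3.95 in Pax5 WT library 3, from 4 reads, and Tbx21 at 3.44 in Pax5 WT library 4, from 4 reads, and both were at 0 in the other Pax5 WT libraries.

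Among summed lists, recipient 1308 stood apart with effector cytokines and chemokines at 5852, against 373 to 1242 in the other leukaemias, and with plasmacytoid dendritic cell markers at 140996. Pax5 KO library 4 stood apart with granulocyte and monocyte markers at 11342 and mast cell and basophil markers at 295. Pax5 WT library 4 stood apart with plasmacytoid dendritic cell markers at 1854 and granulocyte and monocyte markers at 828. Mast cell and basophil markers were at 0 in Pax5 WT library 1 and at 2.00 or close to it in the other Pax5 WT libraries, from 2 reads or so each.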

How the results depend on the processing

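Of the gene differences recomputed in each setting, which are those of the 6 tested genes and of list genes past the threshold, none changed direction; other differences of list genes, such as Klrd1 against Pax5 KO, were not recomputed, and the 4 genes under the filter were fitted once. In P80R B-ALL against Pax5 KO, 3 of the 10 genes were called higher and 5 with edgeR, and 1 was called lower and 0 with edgeR, with log2 CPM and without the filter. Leaving out 1 library gave 2 to 4 higher and 0 to 1 lower, and 3118 to 5315 calls over all genes in place of 4683, the lowest without Pax5 KO library 3. In P80R B-ALL against Pax5 WT, 5 were called higher and 2 with the filter of at least 50, which leaves fewer of the genes to test, and 4 to 6 leaving out 1 library. In Pax5 KO against Pax5 WT, 5 were called higher, 2 with the filter of at least 50 and 5 leaving out any library, and 4193 genes were called in the fit to all 12 libraries, in place of 7901, where the spread between leukaemias enters. With edgeR the median difference of all genes in P80R B-ALL against Pax5 KO was 0.06, in place of -0.11. Whether replicate numbers pair the fetal liver libraries was not settled. The correlations of same-numbered deviations were 0.00493, 0.0216, 0.0318 and 0.0616. The last was the highest of all pairs, but not every library correlated best with its own number. A replicate block gave 7987 calls and 5 of the genes higher. Values under about 10 rest on a few reads, and the precision of Ncr1, Tbx21, Eomes and Zbtb16 is limited by that depth.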
